A study of Mus musculus with 4 samples.

Results

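The genes described here make, assemble and modify collagen and elastic fibres: 51 genes listed for their part in the fibrillar, basement membrane, epithelial and network collagens, the elastic fibre, the matricellular proteins around them, and the enzymes that hydroxylate, fold and cross-link collagen. They were matched by gene symbol to the array annotation. Of the 51 listed genes, 48 were measured, among 19938 genes with a symbol of their own on the array, and each of the 48 had 1 cluster of probes. Fbn1 and Efemp2 had no cluster under their symbol and Loxl2 lay only in a cluster that carries several symbols, so these genes were not analysed here.

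Collagens are proteins of 3 chains wound into a helix. Fibrillar collagens (types I, III, V, XI) form the fibres of connective tissue, type IV collagen forms the sheet of the basement membrane, and types VII and XVII anchor epithelial cells to that sheet. Prolyl and lysyl hydroxylases and the chaperone Serpinh1 act on the chains inside the cell, and lysyl oxidases join the secreted fibres to each other. In pancreatic cancer much of the fibrillar collagen of the tumour is known to be laid down by fibroblasts and stellate cells, while the cancer cells themselves rest on, or break through, the basement membrane.

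Expression was measured on 4 Affymetrix arrays, 1 for each untreated cancer cell line grown from a digested mouse pancreatic tumour in medium with serum. The 2 TPAC lines, K459 and TCPA18654, carried the transgene Ela-TGFa, in which an elastase promoter drives TGF-α in acinar cells of the pancreas, the Cre allele written Ptg1a+/CRE in the labels and p48-Cre in the study, which acts in the pancreas, Trp53fl/fl and p65fl/fl. The 2 TPC lines, TPC18645 and TPC20223, carried the same transgene, Cre allele and Trp53fl/fl, but not p65fl/fl; p65 is the RelA subunit of NF-κB. All 4 lines therefore share the TGF-α transgene, the Cre allele and the floxed Trp53, no normal pancreas stands beside them, and no source used here says if 1 mouse or several gave the lines of a genotype. Values are log2 signals, so a difference of 1 is 2-fold. Levels of different genes were set side by side only to call genes dim or bright and in means over marker lists.

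Rela, the gene of p65, had signals of 10.82 in K459 and 11.10 in TCPA18654, against 11.12 in TPC18645 and 10.70 in TPC20223, and the genotypes overlapped. Its cluster pools probes along the transcript and which exons the p65fl/fl allele loses was not stated, so these values check no label. In the ductal epithelial markers TPC20223 was mostly the lowest line and K459 mostly the highest. All 14 measured markers averaged higher in TPAC than in TPC lines (52.2% of all genes). Their median log2 difference was 1.97, and 0.49 without TPC20223. TPC20223 was lowest in 12 of them (38.8% of all genes), and K459 was highest in 12 (4768 of all 19938 genes). For Epcam K459 stood apart, with 9.77 in K459 and 7.37 in TCPA18654, against 6.82 in TPC18645 and 6.43 in TPC20223. Krt19, a keratin of duct cells, had signals of 12.65 in K459 and 11.79 in TCPA18654, against 11.74 in TPC18645 and 6.08 in TPC20223, and the mean over the list was 10.72 and 9.45, against 9.35 and 6.74. Of 15 fibroblast and stellate cell markers, TPC20223 was highest in 9 (28.1% of all genes), and 7 were dim. Dim means in the lower 40 percent of genes by mean signal, so 40 percent of all genes are dim. The mean over the list was 7.21 in K459 and 7.42 in TCPA18654, against 7.58 in TPC18645 and 8.33 in TPC20223. Pdgfra had 7.72 and 8.0, against 8.32 and 10.32, while the fibroblast markers Lum (4.27 and 4.65, against 4.50 and 4.72) and Fap (4.78 and 4.68, against 4.62 and 4.65) were dim in every line. Others of the list took other orders. Acta2 was bright in every line (11.66 and 12.09, against 12.64 and 13.24). Dcn was higher in TCPA18654 and TPC18645 (8.57 and 10.99, against 11.03 and 9.35), and Thy1 was highest in K459 (8.86 and 6.87, against 6.99 and 7.23). All 7 endothelial, 5 of 6 leukocyte and 2 of 4 Schwann cell markers were dim. For the fibroblast and Schwann cell lists the dim share was near that of all genes. The part of these marker differences in the results below was not tested, and in bulk cultures fewer cells of a type and less RNA per cell cannot be told apart.

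Compared between genotypes, the collagen and elastic fibre genes mostly had lower mean signals in TPAC lines, but none passed the test. The limma test called 0 of the 48 genes and 0 of 19938 genes overall (0%), with the limits set to 0.05 for the adjusted p and to 0.58 for the log2 difference. None of the 48 had an unadjusted p under 0.05 with limma, beside 156 of all genes (0.782%). Of all genes, 38 had such a p with a TPAC mean higher by 0.58 or more (0.191%) and 46 with a mean lower by that much (0.231%). The methods' t-test called none either, and gave 0 of the 48 genes an unadjusted p under 0.05, with 8 of all genes higher and 7 lower at that p by 0.58 or more. The mean was lower in TPAC lines for 38 of the 48 genes (79.2%, against 46.7% of all genes) and higher for 9 (18.8%, against 52.2%). Their median log2 difference was -0.53, beside 0.01 over all genes. A difference of 1 or more was found lower in TPAC lines in 15 genes (2.04% of all genes) and higher in 2, Col18a1 and Efemp1 (1.69% of all genes). Without K459 the higher genes numbered 1 (1.39% of all genes in that fit), and without TPC18645 the lower genes numbered 30 (5.88%).

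The direction depended on 1 line. Without TPC20223 the median of the 48 genes became 0.12 and 1 gene was lower by 1 or more (0.517% of all genes in that fit), with 7 higher (1.04%). By role, leaving out TPC20223 turned the median of the cross-linking enzymes to 0.34, against -0.50 over all 4 lines, and that of the beaded and network collagens to 0.43, against -0.40, while the hydroxylases and the chaperone stayed lower at -0.30, against -0.73. Without TPC18645 the median was -1.22 and 23 of the 48 genes had an unadjusted p under 0.05, beside 16.8% of all genes in that fit, and none of the 48 was called (smallest adjusted p 0.0913 with limma). With 2 lines of each genotype the exact permutation test has 6 assignments of the labels and cannot give a two-sided p below 0.33. The signals of both TPAC lines lay below those of both TPC lines in 8 of the 48 genes (16.7%, against 13.3% of all genes). These were Col5a1, Col5a2, Fbln2, Thbs1, Ccdc80, P4ha2, P4ha3 and Plod1. That share is near the one over all genes, so the lack of overlap does not mark out these genes. With every array set to the same median the count was 6. Both TPAC lines lay above both TPC lines in 1 gene, Col18a1 (2.08%, against 13.7% of all genes). The plot of signals by line shows these values for each gene, and the plot by role shows the differences with and without TPC20223.

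**Figure D1:**
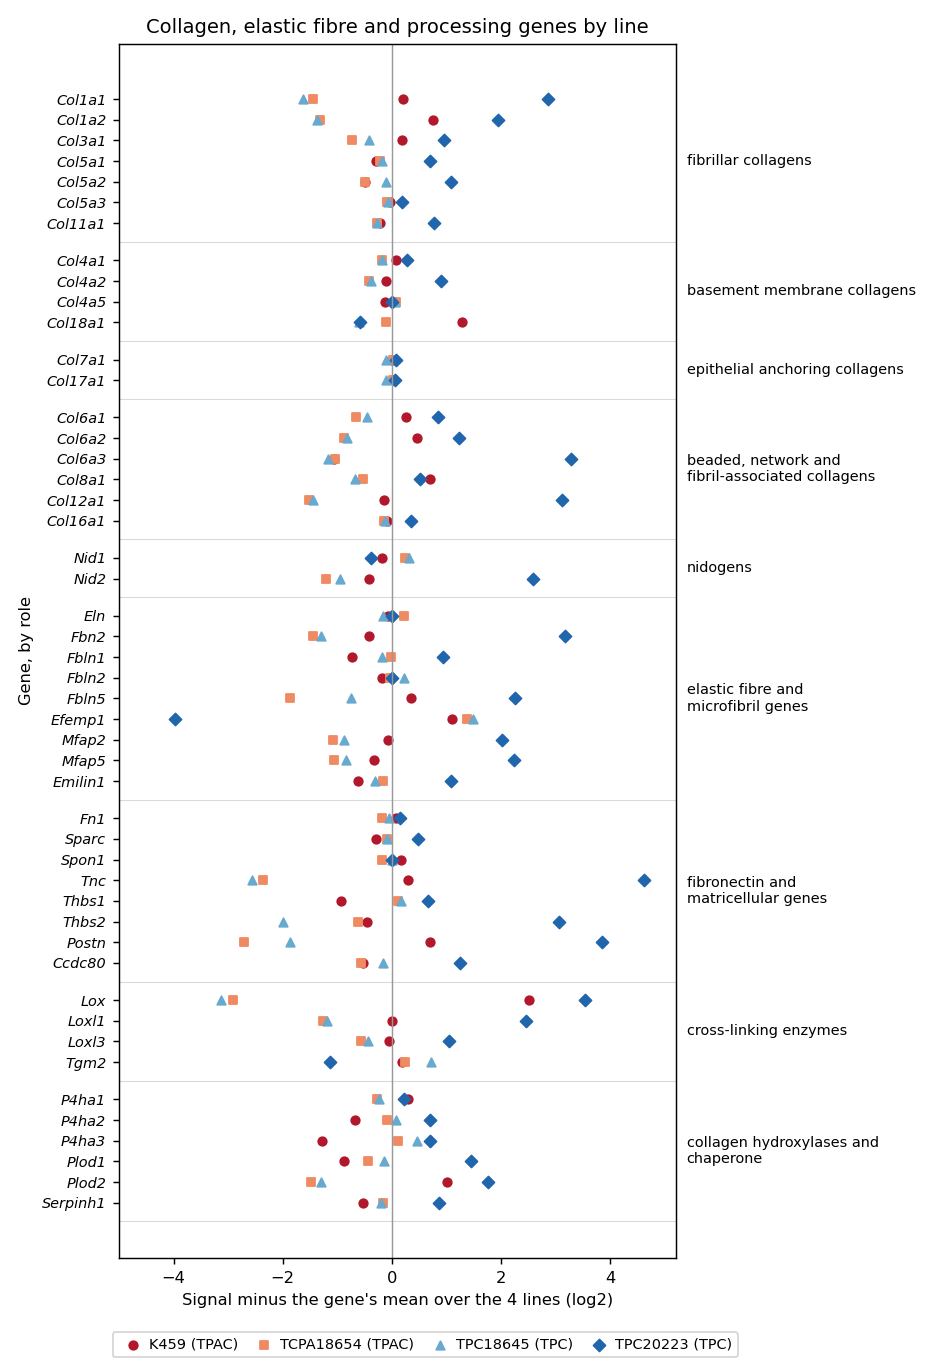
Log2 signal of each of the 48 measured genes minus the gene's mean over the 4 lines (x axis), 1 point for each array, with the genes in rows by role and the TPAC lines in red and orange before the TPC lines in blue. TPC20223 (dark blue diamonds) is the highest line in 38 genes, and the 2 epithelial anchoring collagens hardly vary.

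**Figure D2:**
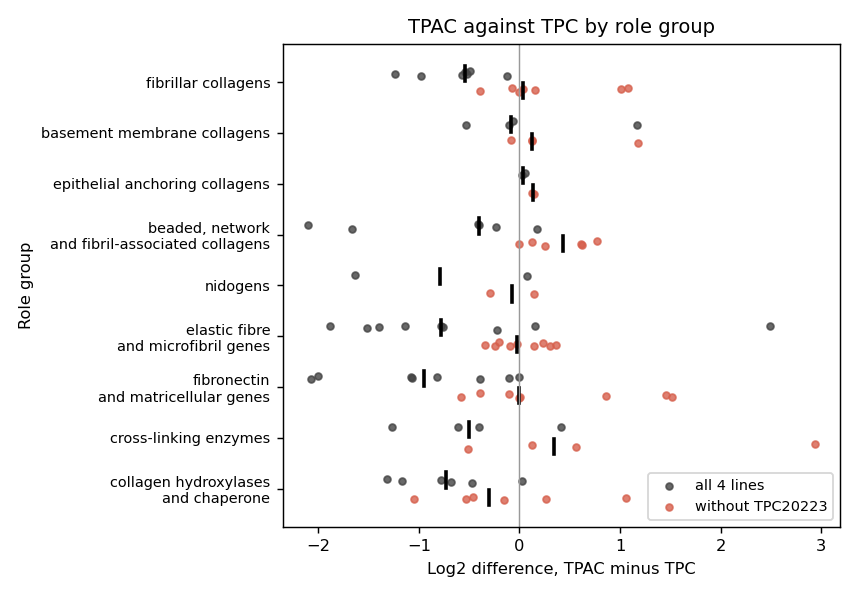
Log2 difference TPAC minus TPC (x axis) of each gene by role, with black bars at the median of each role, over all 4 lines (grey) and without TPC20223 (red). For the fibrillar collagens the median is -0.54 over all 4 lines and 0.04 without TPC20223.

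Line by line, TPC20223 carried the highest signal in 38 of the 48 genes, against 28.1% of all genes, and lay 1 or more above each of the other lines in 21 (43.8%, against 4.24% of all genes). It was the lowest line in 3, Nid1, Efemp1 and Tgm2 (38.8% of all genes), and by 1 or more in Efemp1 and Tgm2 (2.95%). K459 lay 1 or more above each other line in Col18a1 (0.988% of all genes) and below each in Thbs1 and P4ha3 (0.331%). TCPA18654 lay that far below each other line in Fbln5 alone (0.0602%) and TPC18645 in Thbs2 alone (0.0401%). Neither TCPA18654 (0.0201% of all genes) nor TPC18645 (0.0251%) lay that far above the rest in any of the 48 genes. The range over the 4 lines reached 1 or more on the log2 scale in 35 of the genes (15.9% of all genes) and 3 or more in 16 (2.3%), and stayed under 1 in 13. These are differences between single arrays, with no test.

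Among the fibrillar collagens, all 7 had a lower mean in TPAC lines (median difference -0.54, and 0.04 without TPC20223). Col1a1, a chain of type I collagen, had signals of 10.36 in K459 and 8.72 in TCPA18654, against 8.53 in TPC18645 and 13.02 in TPC20223, a difference of -1.24 with a standard error of 1.75 (adjusted p 0.989, limma). TPC20223 was the highest line and K459 the next, and the TPAC lines lay between the TPC lines; TPC20223 was 22.5-fold above TPC18645. Col1a2, the other type I chain, ran the same way, with 9.76 and 7.69 in TPAC lines, against 7.64 and 10.95 in TPC lines. Col3a1, which forms fibres with type I, had 9.13 and 8.20, against 8.51 and 9.90. TCPA18654 was the lowest line for Col3a1 and TPC18645 for both type I chains, and the genotypes overlapped in all 3.

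Col1a2 and 2 other genes are shown here by the 120 bases before their start of transcription, as examples of some patterns across lines. Col1a2 stands for genes high in TPC20223 and K459, Postn for such a gene with a wider range, and Efemp1 for one lowest in TPC20223. No gene high in TPC20223 alone, such as Col6a3, is shown. The sequences are those of RefSeq on mouse build GRCm38.p6, at chr6:4505498-4505617 (plus strand) for Col1a2, chr3:54360987-54361106 (plus strand) for Postn and chr11:28853085-28853204 (plus strand) for Efemp1. Capitals mark a CCAAT box 109 bases before the Col1a2 start, a TATA box (TATAAA) 26 bases before the Postn start and a GC box (GGGCGG, here on the opposite strand as CCGCCC) 29 bases before the Efemp1 start.
Col1a2: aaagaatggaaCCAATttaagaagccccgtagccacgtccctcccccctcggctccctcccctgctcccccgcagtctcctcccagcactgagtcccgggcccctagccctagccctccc
Postn: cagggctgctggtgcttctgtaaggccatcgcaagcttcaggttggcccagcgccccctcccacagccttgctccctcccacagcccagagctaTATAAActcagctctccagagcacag
Efemp1: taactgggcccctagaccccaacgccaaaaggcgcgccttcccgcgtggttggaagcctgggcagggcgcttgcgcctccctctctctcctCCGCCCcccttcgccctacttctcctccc

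Promoters were given in RefSeq for 32 of the 48 measured genes, with 39 starts in all, and 250 bases before each were searched on both strands. CCAAT was found in 35.9% of these promoters, against 35.4% of 21262 promoters of protein-coding genes. CAGAC, the core of the SMAD box, was found in 53.8%, against 40.8%, and TATAAA in 17.9%, against 11.6%. GGGCGG was found in 64.1%, against 42.6%, and a κB-like pattern, GGG and CC set 5 bases apart, which can overlap GGGCGG, in 76.9%, against 51.8%. The promoters of the listed genes held more G and C, with a median of 60.8%, against 55.6%. Among all 32851 starts in the table the shares were 33.8%, 42.2%, 12.4%, 32.7% and 45.8% for the CCAAT box, the SMAD core, the TATA box, the GC box and the κB-like pattern. A match is only a run of letters in this window.

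The minor fibrillar collagens varied less. Col5a2, a chain of type V collagen, which sits inside type I fibres and sets their width, had 8.75 in K459 and 8.76 in TCPA18654, against 9.14 in TPC18645 and 10.34 in TPC20223. Its TPAC lines were both below its TPC lines, with a difference of -0.98 (standard error 0.45, unadjusted p 0.101, adjusted p 0.989, limma), of -0.39 without TPC20223 and of -1.58 without TPC18645. Col5a1, the partner chain, had 8.24 and 8.32 in TPAC lines, against 8.35 and 9.24 in TPC lines, without overlap but only 0.07 apart in means when TPC20223 was left out. Col11a1, a related chain of cartilage and of fibrotic stroma, had 7.49 and 7.44, against 7.43 and 8.48. Col5a3 had 7.22 and 7.16, against 7.19 and 7.44, a range of only 0.28.

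**Figure D3:**
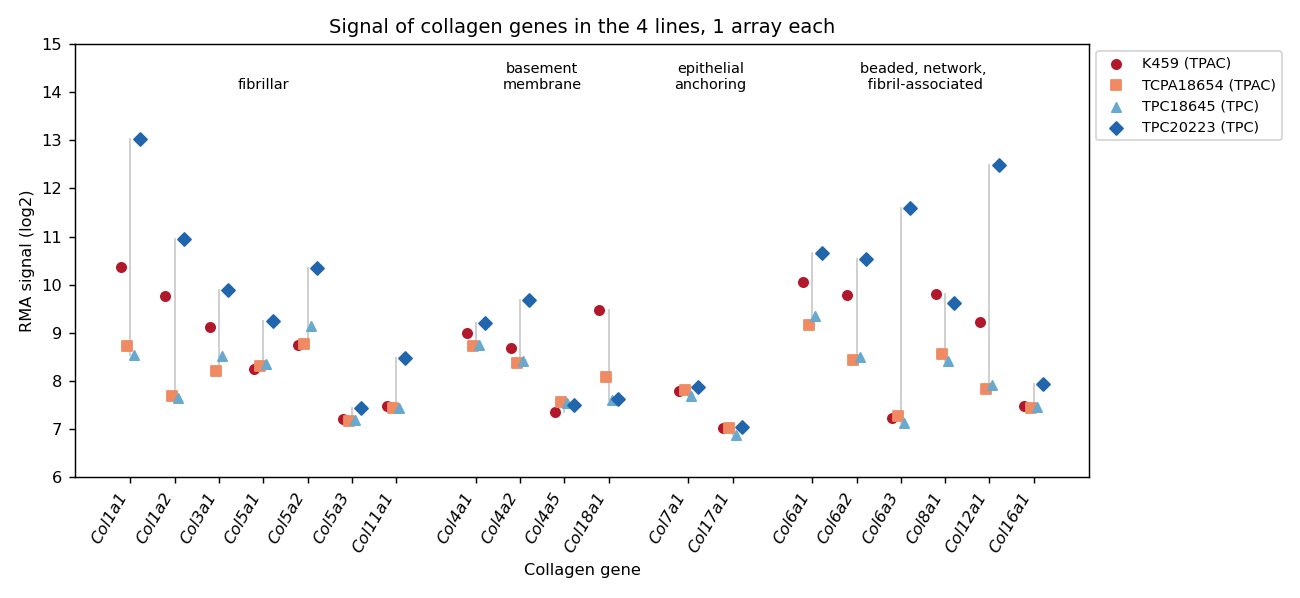
RMA log2 signals (y axis) of the measured collagen genes by class, 1 point for each array, TPAC lines (red, orange) left of TPC lines (light and dark blue), with a grey line over each gene's range. The fibrillar genes Col1a1 and Col1a2 reach 13.02 and 10.95 in TPC20223, while Col7a1 and Col17a1 stay within ranges of 0.18 and 0.16.

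The median difference between TPC20223 and TPC18645 was 0.24 for the 4 basement membrane collagens, against 1.20 for the fibrillar and 0.17 for the epithelial anchoring collagens. Between K459 and TCPA18654 the order of the first classes was the other way, with a median of 0.29 for basement membrane and 0.06 for fibrillar collagens, so neither class varied less in every pair of lines. Col4a1 and Col4a2, which are transcribed from a shared promoter region and form the common type IV molecule, had 9.0 and 8.73 in TPAC lines, against 8.74 and 9.20 in TPC lines, for Col4a1. For Col4a2 the values were 8.68 and 8.37, against 8.41 and 9.69, and the TPC20223 step over TPC18645 was 1.28 for Col4a2 and 0.46 for Col4a1. Col4a5, a chain of a rarer type IV molecule, had 7.36 and 7.56, against 7.54 and 7.50, the smallest range (0.20) after Col17a1 and Col7a1.

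Col18a1 took another order of lines. Its product is a basement membrane collagen with heparan sulphate chains and the source of endostatin. It had signals of 9.48 in K459 and 8.08 in TCPA18654, against 7.60 in TPC18645 and 7.62 in TPC20223. K459 was highest and TCPA18654 next, and Col18a1 was the only gene of the 48 in which both TPAC lines lay above both TPC lines. The difference of 1.17 (standard error 0.53) had an unadjusted p of 0.0948 and an adjusted p of 0.989 with limma. Without K459 it was 0.47, without TCPA18654 1.87 and without TPC20223 1.18.

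Epithelial anchoring collagens were level across the lines, including the line in which keratins were low. Col7a1, the anchoring fibril, had 7.80 and 7.82 in TPAC lines, against 7.69 and 7.87 in TPC lines. Col17a1, the collagen of hemidesmosomes, had 7.02 in both TPAC lines, against 6.88 and 7.04 in TPC lines, at the edge of the dim range. The arrays carry no detection call, so a level pattern at such signals cannot be told apart from background. The nidogens, which tie laminin to type IV collagen, went opposite ways. Nid2 had 7.93 and 7.15, against 7.40 and 10.95, with TPC20223 alone high. Nid1 had 11.65 and 12.07, against 12.15 and 11.44, with TPC20223 lowest.

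Beaded, network and fibril-associated collagens included some of the widest differences. Col6a3, the large chain of type VI collagen, had 7.24 in K459 and 7.27 in TCPA18654, against 7.13 in TPC18645 and 11.59 in TPC20223. It was high in TPC20223 alone, and its genotype difference of -2.10 became 0.12 without that line. The other chains of the same molecule were high in K459 too, with 10.06 and 9.16, against 9.36 and 10.65 for Col6a1, and 9.78 and 8.44, against 8.49 and 10.54 for Col6a2. Col12a1, which decorates type I fibres, had 9.22 and 7.84, against 7.92 and 12.48, with TPC20223 highest and K459 next. Col8a1, a network collagen of vessel walls and cornea, was highest in K459 and next highest in TPC20223, and Col16a1 lay within a range of under 1.

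Of the 9 elastic fibre and microfibril genes, 6 were highest in TPC20223 (Fbn2, Fbln1, Fbln5, Mfap2, Mfap5 and Emilin1), and elastin itself, Fbln2 and Efemp1 were not. Elastin (Eln), the core of the fibre, had 7.14 and 7.43 in TPAC lines, against 7.05 and 7.21 in TPC lines, and the genotypes overlapped. Fbn2, a fibrillin of microfibrils, had 7.39 and 6.37, against 6.52 and 10.99. Mfap5, which binds fibrillins, had 7.02 and 6.29, against 6.51 and 9.60. In both genes TPC20223 was far above the other 3 lines and K459 was next. Fbln5, which guides elastin onto microfibrils, had 10.27 and 8.05, against 9.18 and 12.18, and here all 4 lines were spread out, with TCPA18654 lowest.

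Efemp1, a fibulin of the elastic fibre family, ran the other way. It had signals of 12.39 in K459 and 12.67 in TCPA18654, against 12.77 in TPC18645 and 7.31 in TPC20223. The other 3 lines were close together and TPC20223 was far below them, and the genotypes overlapped. The genotype difference of 2.49 (standard error 2.0, adjusted p 0.989, limma) became -0.24 without TPC20223. Tgm2, the transglutaminase that cross-links matrix proteins, was also lowest in TPC20223, with 11.04 and 11.09, against 11.57 and 9.73.

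Among the matricellular genes, 7 of 8 had a lower mean in TPAC lines and Spon1, which was dim, had the same mean in both. Tnc, tenascin C, had 8.38 in K459 and 5.72 in TCPA18654, against 5.53 in TPC18645 and 12.71 in TPC20223, the widest range of all 48 genes. Postn, periostin, had 8.55 and 5.15, against 5.99 and 11.71. In both, TPC20223 was highest and K459 next, and the genotype differences of -2.07 and -2.0 became 1.52 and 0.86 without TPC20223. Thbs2, a thrombospondin, had 8.79 and 8.62, against 7.25 and 12.30. It was the 1 gene of the 48 that TCPA18654 held 1 or more above TPC18645 (0.12% of all genes). Ccdc80, a secreted matrix protein, had 10.67 and 10.64, against 11.04 and 12.44, with both TPAC lines below both TPC lines (difference -1.08, standard error 0.53, unadjusted p 0.113, adjusted p 0.989, limma). That difference was -0.39 without TPC20223 and -1.78 without TPC18645. Fn1 and Sparc, fibronectin and osteonectin, ranged over less than 1 across the lines.

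The lysyl oxidases, which start the cross-links of collagen and elastin, divided the lines within each genotype. Lox, the founding lysyl oxidase, had 11.85 in K459 and 6.43 in TCPA18654, against 6.20 in TPC18645 and 12.87 in TPC20223. The lines fell into 2 levels, 1 line of each genotype high and 1 low, so the genotype means differed by only -0.40 with a standard error of 3.14. Loxl1, which acts on elastic fibres, had 9.10 and 7.83, against 7.91 and 11.56, and Loxl3 had 8.33 and 7.82, against 7.95 and 9.42. Both were highest in TPC20223 and next highest in K459.

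**Figure D4:**
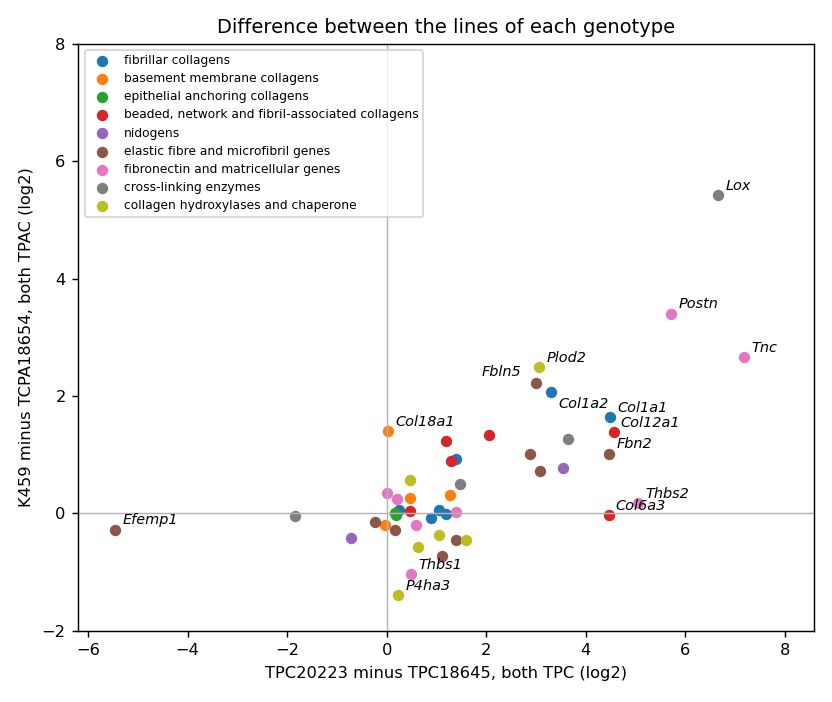
Log2 difference K459 minus TCPA18654 within the TPAC genotype (y axis) against TPC20223 minus TPC18645 within the TPC genotype (x axis), 1 point for each of the 48 measured genes, coloured by role. The 13 genes with a difference of 1 or more on both axes lie to the upper right, with Lox the highest at 5.42 on the y axis.

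In more genes than Lox, K459 lay above TCPA18654 and TPC20223 above TPC18645. Their levels were often not alike, since K459 was 1 or more below TPC20223 in 26 of the 48 genes (5.79% of all genes). K459 was 1 or more above TCPA18654 in 14 of the 48 genes (2.62% of all genes) and below it in 2, Thbs1 and P4ha3 (1.25%). TPC20223 was 1 or more above TPC18645 in 28 (5.97%) and below it in 2, Efemp1 and Tgm2 (5.28%). In 13 genes both differences reached 1 or more upward, against 1.25% of all genes: Col1a1, Col1a2, Col6a2, Col8a1, Col12a1, Fbn2, Fbln5, Mfap2, Tnc, Postn, Lox, Loxl1 and Plod2. In none was TPC20223 that far above TPC18645 and K459 that far below TCPA18654 (0.0702% of all genes). These pairs share no array, but the 2 lines subtracted, TCPA18654 and TPC18645, were close, with 0.271% of all genes 1 or more apart. A gene low or high in both moves both differences the same way, so joint steps and a positive correlation are partly built in. The differences had a Pearson correlation of 0.68 and a Spearman correlation of 0.61 across the 48 genes, beside 0.32 and 0.16 across all genes. Genes are not independent replicates and the arrays were normalized together, so the correlations are descriptions. The ductal keratins did not take the same order, since Krt19 was highest in K459 and lowest in TPC20223.

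TCPA18654 and TPC18645, of different genotypes, were close. Only Thbs2 was 1 or more higher in TCPA18654 (log2 difference 1.37, 0.12% of all genes) and only Fbln5 1 or more lower (-1.13, 0.15% of all genes), which is 2 of 48 genes beside 0.271% of all genes. The median difference over the 48 genes was -0.06. K459 was 1 or more above TPC18645 in 13 genes (2.6% of all genes) and below it in 2 (1.74%). Against TPC20223, K459 was 1 or more lower in 26 genes (5.79%) and higher in 3 (5.11%), and TCPA18654 was lower in 27 (6.33%) and higher in 2 (4.55%).

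Of the 6 measured enzymes and chaperones that act on procollagen, 5 had a lower mean in TPAC lines (median difference -0.73) and none was called. P4ha3, a prolyl 4-hydroxylase subunit, had 9.24 in K459 and 10.63 in TCPA18654, against 10.99 in TPC18645 and 11.22 in TPC20223. K459 stood 1 or more below the other 3 lines, and the difference of -1.17 (standard error 0.53, unadjusted p 0.0962, adjusted p 0.989, limma) was -1.05 without TPC20223, -0.47 without K459 and -1.86 without TCPA18654. P4ha2, another catalytic subunit of that enzyme family, had 8.48 and 9.06, against 9.23 and 9.86 (difference -0.78, standard error 0.34, unadjusted p 0.0866, limma), and the difference was -0.46 without TPC20223 and -0.48 without K459. Plod1, a lysyl hydroxylase, had 9.43 and 9.88, against 10.18 and 11.77. For all 3 the order was K459, TCPA18654, TPC18645, TPC20223 from low to high. Plod2, the lysyl hydroxylase of the collagen ends, was high in K459 and TPC20223, as Lox was, with 8.72 and 6.23, against 6.41 and 9.47. Serpinh1, the collagen chaperone, had 10.19 and 10.55, against 10.52 and 11.58, and the genotypes overlapped.

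Other genes of the pathway gave no call either. Of 17 further genes of procollagen folding and secretion, 14 had a lower mean in TPAC lines (46.7% of all genes) and 3 a higher one. Their median difference was -0.38, and -0.07 without TPC20223, and 15 were highest in TPC20223 (28.1% of all genes). P3h2, a prolyl 3-hydroxylase, had 7.61 and 8.48, against 8.70 and 10.56, and Kdelr3, a receptor that returns proteins to the endoplasmic reticulum, had 9.90 and 9.94, against 10.00 and 12.07. Of 8 genes of procollagen processing, 4 were higher and 4 lower (median 0.01), with the widest ranges in Adamts3, a procollagen N-proteinase (8.21 and 8.10, against 8.01 and 10.25), and Pcolce2, an enhancer of the C-proteinase (9.22 and 9.96, against 9.83 and 10.80). Of 9 genes of collagen receptors and uptake, which include the protease Ctsk, 8 had a lower mean in TPAC lines (46.7% of all genes). Ddr1 (-0.01) and Itga1 (-0.04) were lower by very little. The median over this list was -0.17 and became 0.18 without TPC20223. Ddr2, a kinase that binds fibrillar collagen, had 9.06 and 8.26, against 7.76 and 11.94, while Itga2, the α chain of an epithelial collagen integrin, had 11.71 and 10.34, against 10.17 and 7.88. TPC20223 was the highest line for Ddr2 and the lowest for Itga2.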

How the data were processed

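The authors deposited log2 signals of 4 mouse gene arrays, which they had normalized by RMA in Affymetrix Expression Console 1.4, per the submitters' processing notes; RMA puts all arrays on 1 distribution, so a difference in total RNA does not show. Array dates, batches and detection calls are not given in the sources used here. All 4 columns of values were used and 0 were left unused. Transcript clusters with 1 symbol were kept, and of several clusters of a gene that with the highest mean was taken. TPAC was compared with TPC over the 4 lines with limma 3.58.1 in R 4.3.3 (lmFit, eBayes, Benjamini-Hochberg over 19938 genes). The code was tried on simulated data in which all genes had the same spread. The genes of these lines do not, so that trial checked the code and not its power here. Calls needed a log2 difference of at least 0.58 and an adjusted p no greater than 0.05, limits that the study states for another comparison on this platform. p-values measure only the spread between these lines, and 1 array for each line allows no test between lines. The fit was repeated after cyclic loess, after setting every array to the same median, with clusters of a gene averaged, with a filter at the 40th percentile, with an intensity trend, by the methods' t-test and without each line. Values in every line are given for all fibrillar, basement membrane and epithelial collagens, for up to 4 genes of each other role by range, for the 3 smallest p in each direction, for the 3 smallest ranges, for Ccdc80, and for the 2 widest genes of each further list (3 for other collagens); marker genes and Thbs1, Spon1, Fn1 and Sparc are named beside them. The genes, lists and rules were chosen with earlier results of these data known. Protein sequences were not used here.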

Additional observations from a re-analysis of the deposited data

How the results depend on the processing

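Under every alternative 0 genes were called, and 26 of the 37 genes named with values changed the sign of their TPAC minus TPC difference when 1 line was left out, 23 of them without TPC20223 and none under another setting. Over the fits that left out 1 line, the difference ran from -1.01 to 0.04 for Col11a1, -3.95 to 0.61 for Col12a1, -0.02 to 0.14 for Col17a1, -3.48 to 1.01 for Col1a1, -2.23 to 1.08 for Col1a2, -1.24 to 0.15 for Col3a1, -0.34 to 0.12 for Col4a1, -1.17 to 0.12 for Col4a2, -0.16 to 0.04 for Col4a5, -1.04 to 0.25 for Col6a1, -1.43 to 0.62 for Col6a2, -4.33 to 0.12 for Col6a3, -0.06 to 0.12 for Col7a1, -0.24 to 5.22 for Efemp1, -4.11 to 0.36 for Fbn2, -3.73 to 2.94 for Lox, -3.10 to 0.56 for Loxl1, -1.34 to 0.12 for Loxl3, -2.94 to 0.14 for Mfap5, -0.29 to 0.42 for Nid1, -3.41 to 0.14 for Nid2, -2.0 to 1.06 for Plod2, -4.86 to 0.86 for Postn, -0.51 to 1.33 for Tgm2, -3.60 to 1.46 for Thbs2 and -5.66 to 1.52 for Tnc. The other 11 kept their sign or reached 0, running from -0.96 to -0.07 for Col5a1, -1.58 to -0.39 for Col5a2, -0.25 to 0.00 for Col5a3, 0.47 to 1.87 for Col18a1, 0.01 to 0.30 for Eln, -3.02 to -0.02 for Fbln5, -1.78 to -0.39 for Ccdc80, -1.09 to -0.46 for P4ha2, -1.86 to -0.47 for P4ha3, -2.12 to -0.53 for Plod1 and -1.21 to -0.15 for Serpinh1. The role medians ran from -1.24 to 0.04 for fibrillar collagens, -1.48 to -0.02 for elastic fibre genes, -1.43 to 0.00 for matricellular genes, -2.22 to 0.34 for cross-linking enzymes and -1.25 to -0.30 for hydroxylases and the chaperone, and the genes 1 or more higher in TPAC lines numbered 1 to 7 (1.04% to 4.54% of all genes in these fits) and lower 1 to 30 (0.517% to 5.88%). The lone line of a genotype was then assumed to vary like the other genotype's lines, and the cause of the changes was not tested. With a limit of 2, and the share of all genes in brackets, K459 was higher than TCPA18654 in 6 genes (0.702%) and lower in 0 (0.231%), TCPA18654 than TPC18645 in 0 (0.01%) and 0 (0.00502%), K459 than TPC18645 in 5 (0.823%) and 0 (0.301%), TPC20223 than TPC18645 in 16 (2.48%) and 1 (1.48%), K459 than TPC20223 in 1 (1.65%) and 12 (1.86%), and TCPA18654 than TPC20223 in 1 (1.35%) and 16 (2.51%). With a limit of 0.58 the lower genes numbered 4 for K459 minus TCPA18654 (3.9%), 2 for TCPA18654 minus TPC18645 (0.963%) and 4 for K459 minus TPC18645 (5.18%). No paired analysis was possible because the lines of the genotypes share no number in the labels. The number of arrays limits the precision, and dim genes such as Spon1 may not be measured above background. Dim was set on the mean over the 4 lines, so a gene bright in TPC20223 was not flagged where other lines were low. In TCPA18654 and TPC18645, for example, Tnc had 5.72 and 5.53, Postn 5.15 and 5.99, and Lox 6.43 and 6.20. These signals may be background too.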

Other observations

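Of 25 collagen genes of the array outside the list, 17 had a higher and 8 a lower mean in TPAC than in TPC lines, with a median log2 difference of 0.07, none was called by limma, and 8 were dim. Their widest range was that of Col14a1, a fibril-associated collagen, with 6.78 in K459 and 8.26 in TCPA18654, against 7.79 in TPC18645 and 8.47 in TPC20223. Here K459 was the line that stood low. Col6a4, a further chain of the type VI family, had 6.73 and 7.13, against 6.78 and 8.14, and Col2a1, the chain of cartilage collagen, had 8.26 and 8.27, against 8.06 and 9.45. Both were highest in TPC20223.

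The list of elastic fibre partners was split, with 6 of 11 genes higher and 5 lower in TPAC lines (median 0.04). It includes Fblim1, a focal adhesion gene and no part of the elastic fibre, which was among the higher genes (difference 0.19). Ltbp2, which binds fibrillin, had 10.14 in K459 and 8.05 in TCPA18654, against 7.16 in TPC18645 and 10.12 in TPC20223, so that 1 line of each genotype was high. Fbln7, a fibulin, had 9.03 and 7.42, against 8.05 and 9.01, and K459 and TPC20223 were again the higher lines, although TCPA18654 was lowest here and TPC18645 for Ltbp2. Of 15 genes of the TGF-β pathway, 7 were higher and 8 lower (median -0.20). Tgfbi, a secreted protein induced by TGF-β, had 9.64 and 7.19, against 7.29 and 13.38, with TPC20223 highest and K459 next, and Tgfbr3, a co-receptor, had 8.59 and 8.58, against 8.32 and 9.79. None of these genes was called by limma. Among 9 mesenchymal markers, 8 had a lower mean in TPAC lines (46.7% of all genes) and TPC20223 was highest in 8 (28.1%). Their median difference was -0.39, and -0.08 without TPC20223. Vimentin (Vim) was bright and nearly level, with 13.79 and 13.83, against 13.89 and 13.91.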
